A study of Mus musculus with 16 samples.

Results

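miR-122 is the microRNA that hepatocytes hold in largest amount, and it was followed here on each array and with each probe of a study of mouse liver tumours. It was found by its name, mmu-miR-122, in the gene column of the array files, where 2 probes carry it, and it is 1 of 566 mouse miRNAs on the array. The samples were liver tissue from male C3H/HeJ mice, which are inbred and prone to tumours of the liver, and the carcinogen diethylnitrosamine (DEN) was injected once. The 16 arrays fell into 4 groups by title. They were 7 tumours with a mutation in Ctnnb1, the gene of beta-catenin, and 3 non-tumour livers, both labelled with phenobarbital as the agent, and 3 tumours with a mutation in Ha-ras and 3 non-tumour livers, both labelled with water.

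All 16 samples carry the label of a treatment duration of 27 weeks. The design text puts the DEN dose at 10 or 90 µg per g and the age of injection at 2 weeks or 6 weeks, with a gap of 2 weeks before the feeding period of 28 to 36 weeks, in which the feed held 0.05% phenobarbital or none, while the treatment protocol in the labels gives 28 days of phenobarbital in drinking water. The dose and age that applied to each sample are not given in the sources used here, nor is it given whether the control livers came from injected mice. The livers without phenobarbital are called untreated controls in that sense only. The labels do not say whether samples came from separate animals, so p-values measure the spread between these samples, which may be technical. Each Ctnnb1 tumour came with phenobarbital and each Ha-ras tumour without it, so that genotype and agent cannot be told apart between the tumour kinds.

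A miRNA is cut from a hairpin precursor and loaded into an Argonaute protein, where bases 2 to 8 of its 5′ end, the seed, pair with messenger RNAs and lower their translation or stability. miR-122 is made mainly in hepatocytes under liver transcription factors of the HNF family, represses messages of lipid, cholesterol and iron handling, and is the host factor that hepatitis C virus needs to replicate. Mice that lack it develop fatty liver and, later, liver tumours, and its loss is known from many human hepatocellular carcinomas.

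Sequences are shown for the miRNAs whose level ran most like that of miR-122 over the arrays and, for contrast, for the ones that ran against it or that resemble the first set in sequence. Likeness was Pearson's correlation (r) of the log2 levels over all 16 arrays among the 71 other mouse miRNAs detected on every array. The sequences are the mature miRNAs of RefSeq (GRCm38.p6), written 5′ to 3′ with the seed in capitals, for the arm that the older name on the array stands for. By the rule used for naming, the 5 highest and 3 lowest were taken, and 7 of these 8 had an entry. miR-30e, miR-26b and miR-101a were added after their values were seen, because they belong to the families of the leading ones.
miR-30a: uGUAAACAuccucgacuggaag
miR-30c: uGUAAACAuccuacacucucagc
miR-30e: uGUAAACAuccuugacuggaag
miR-26a: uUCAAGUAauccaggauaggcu
miR-26b: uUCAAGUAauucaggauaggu
miR-101b: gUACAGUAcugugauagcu
miR-101a: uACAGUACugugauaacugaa
miR-194: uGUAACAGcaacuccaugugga
miR-15b: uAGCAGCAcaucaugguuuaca
miR-223: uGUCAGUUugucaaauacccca
The 10 miRNAs have 7 distinct seeds. miR-30a, miR-30c and miR-30e share the seed GUAAACA, miR-26a and miR-26b share the seed UCAAGUA, and the remaining 5 have a seed each. The letters of the entry for miR-101b start 1 base earlier than those for miR-101a, which sets their seeds apart by that base.

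Levels are spot intensities, background-subtracted by the scanner software, averaged over the spots of a probe, scaled so that the 75th percentile over 117 probes detected on all arrays is equal between arrays, and taken to log2; the level of miR-122 is the mean of its 2 probes. On this scale a difference of 1 is a change of 2-fold. Intensities of different probes are not on a common scale of amount, so each miRNA is compared only with itself across samples. The 16 arrays lay on 3 slides. All 7 Ctnnb1 tumours shared slide 1 with Ha-ras tumour 1. Ha-ras tumours 2 and 3 were on slide 2 with untreated control 1 and phenobarbital controls 4 and 5, and the 3 remaining control livers were on slide 3. An array detected between 83 and 117 mouse miRNAs, and the scaling percentile ran from 386 to 1248 intensity units.

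miR-122 was measured far above background and far below saturation in every sample. Each probe had 10 spots on an array, and all 320 of its spots over the 16 arrays were well above background by the software's own mark. The software marked 7 of these as outliers, which were left out. No spot of the arrays was saturated, and the brightest spot of miR-122 reached 7.20% of the saturation value. Spots of a probe on an array varied by a coefficient of variation of 3.55% to 9.18% for probe A_54_P2400 and of 5.48% to 9.23% for probe A_54_P2401. The spread between spots was thus small against the 2.60-fold range of miR-122 over the arrays. The 2 probes together made up 17.9% to 37.3% of the summed signal of all mouse probes of an array, with a median of 31.4%. This is a share of signal, not of molecules.

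In the untreated controls the log2 level of miR-122 was 14.23, 14.20 and 14.13 in replicates 1 to 3, a mean of 14.18 ± 0.05 (SD, n = 3). In the phenobarbital controls it was 13.94, 14.21 and 14.10 in replicates 4 to 6, a mean of 14.08 ± 0.13 (n = 3). The ranges of the control groups overlapped, with phenobarbital control 4 the lowest of the 6 non-tumour livers. The small spread of the controls rested on the scaling. Without scaling the SD was 0.21 in the untreated and 0.50 in the phenobarbital controls. With the 75th percentile over all mouse probes (the all-probe percentile) it was 0.45 and 0.60. That percentile was 2.88 to 5.94 intensity units on the arrays. This is below the floor of 24.8 used here, so that scaling rests on signal near background.

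With the scaling used here the Ha-ras tumours lay at the level of the control livers. Their levels were 13.96, 14.32 and 14.46 in replicates 1 to 3, a mean of 14.25 ± 0.26 (n = 3). Ha-ras tumours 2 and 3 were the highest of all 16 arrays with this scaling. Ha-ras tumour 1, the only array of its group on slide 1, was below all untreated controls. The place of Ha-ras tumour 1 rested on the scaling. Its scaling percentile of 1248 intensity units was the largest. Without scaling it was the highest of all 16 arrays, at 14.99. It was also the highest when scaled on added spike-in RNAs, at 14.90 (hybridisation controls) and 14.98 (labelling controls).

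The Ctnnb1 tumours reached lower than the other groups. Their levels had a lowest value of 13.08 in replicate 7, a median of 13.71 in replicate 4 and a highest value of 14.18 in replicate 5, with a mean of 13.66 ± 0.40 (n = 7). The range within the group was 2.13-fold, against 1.07-fold in the untreated controls, 1.20-fold in the phenobarbital controls and 1.42-fold in the Ha-ras tumours, all of n = 3. Replicates 1 and 5, at 14.13 and 14.18, were at the level of the controls. The other 5 Ctnnb1 tumours, from 13.08 to 13.74, were below each of the 9 arrays of the other groups. Among the 72 miRNAs detected on all arrays, the median SD within the Ctnnb1 tumours was 0.30, and 18 had a larger SD there than miR-122. Against phenobarbital controls and Ha-ras tumours, the wider spread of the Ctnnb1 tumours also depended on the scaling. Without scaling the SD was 0.46 in Ctnnb1 tumours, 0.50 in phenobarbital controls and 0.47 in Ha-ras tumours. With hybridisation spike-in scaling it was 0.39, 0.40 and 0.44, and with labelling spike-in scaling 0.44, 0.43 and 0.37. The untreated controls had a smaller SD in each, 0.21, 0.18 and 0.0088.

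**Figure D1:**
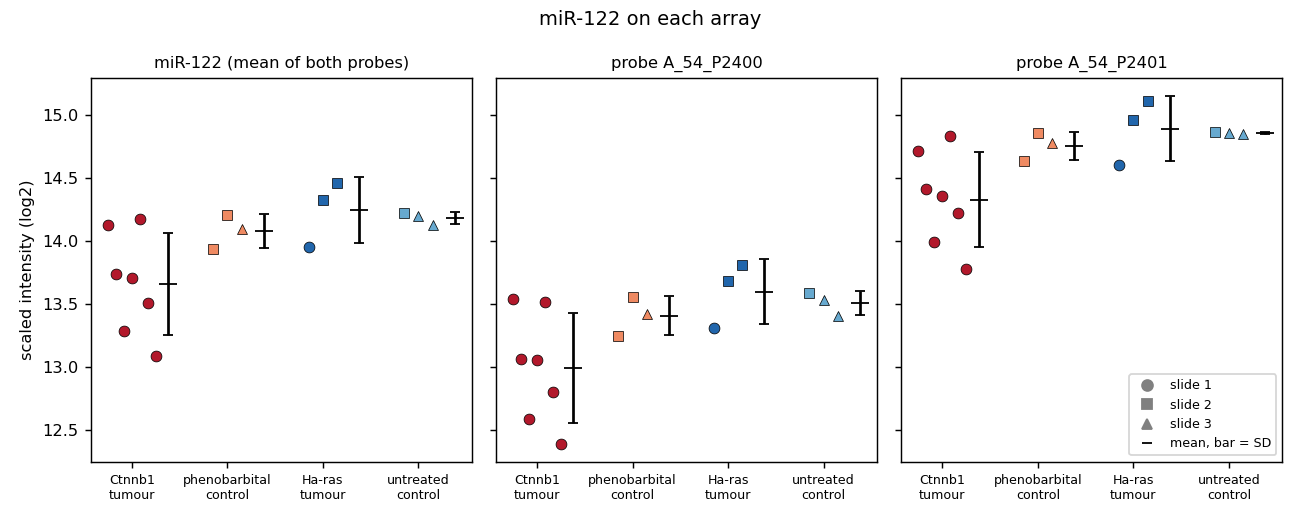
Level of miR-122 on each array (log2 scaled intensity), as the mean of both probes and for each probe, by group; symbols give the slide, and bars show the mean and SD of a group (n = 7 for Ctnnb1 tumours, n = 3 for the others). The Ctnnb1 tumours run from 13.08 to 14.18, and 5 of them lie below each array of the other groups with both probes.

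The 2 probes gave the same picture. Probe A_54_P2401 read 1.17 to 1.45 above probe A_54_P2400 on the log2 scale on every array, and the levels of the probes correlated over the 16 arrays with r = 0.99. Group means for probe A_54_P2400 were 12.99 ± 0.44 in Ctnnb1 tumours, 13.41 ± 0.15 in phenobarbital controls, 13.60 ± 0.26 in Ha-ras tumours and 13.51 ± 0.09 in untreated controls. For probe A_54_P2401 they were 14.33 ± 0.37, 14.76 ± 0.11, 14.89 ± 0.26 and 14.86 ± 0.01 in the same order. The order of the groups was the same with both, and Ha-ras tumours and untreated controls differed by less than their spread.

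From high to low the group means ran from Ha-ras tumours through untreated controls and phenobarbital controls to Ctnnb1 tumours. No neighbours in this order differed past the threshold of an adjusted p of 0.05, and the groups at its ends did. The comparisons came from 1 limma fit of the 4 group means over the 96 mouse miRNAs that all arrays of some group detected, with Benjamini-Hochberg adjustment over those 96. The material was bulk tissue, in which fewer hepatocytes and less miR-122 per hepatocyte cannot be told apart.

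miR-122 was lower in Ctnnb1 tumours than in Ha-ras tumours, 13.66 against 14.25, a log2 difference of -0.59 (SE 0.20, 95% interval -1.02 to -0.15) or 1.50-fold lower (interval 1.11 to 2.03). The limma adjusted p was 0.0407, and 13.5% of the 96 miRNAs were called lower in this comparison and 30.2% called in either direction, so the call is no rarity among the miRNAs. miR-122 ranked 28 by p of the 29 called. In the fit over 159 probes, of which 31.4% were called and 14.5% called lower, the differences were -0.61 (SE 0.22, adjusted p = 0.0490) for probe A_54_P2400 and -0.56 (SE 0.20, adjusted p = 0.0405) for probe A_54_P2401. The groups overlapped, since Ctnnb1 tumours 1 and 5 were above Ha-ras tumour 1. The exact two-sided permutation test of miR-122 alone gave p = 0.0583, where the smallest p for 7 against 3 is 0.00833.

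This call was at the edge of what the arrays can hold. Of the 16 fits that each left out 1 array, the limma call stood in 4, with differences from -0.73 to -0.48 and adjusted p from 0.0171 to 0.163; the highest was without Ha-ras tumour 3. With slide as a fixed block the difference was -0.30 (SE 0.32, adjusted p = 0.648), which is also its value within slide 1, where Ha-ras tumour 1 is the only array of its group and is assumed to vary like the others. The value within slide 1 rested on the scaling. Without scaling the Ctnnb1 tumours, all on slide 1, averaged 13.75, and Ha-ras tumour 1 was at 14.99. With hybridisation spike-in scaling these levels were 13.71 and 14.90. Slide 2, where the other Ha-ras tumours lay, held no Ctnnb1 tumour. With slide as a random block the difference was -0.64 (SE 0.18, adjusted p = 0.0128). Scaling moved the difference from -0.04 with quantile normalisation (adjusted p = 0.884) to -1.13 with the all-probe percentile (adjusted p = 0.00703). Neither end is a sound measure of its size. Quantile normalisation sets miR-122 by its rank, and it read 13.83 on each Ha-ras tumour. The all-probe percentile lies below the floor, as given above. In all of these fits the value for Ctnnb1 tumours was the lower. Relative to the median miRNA tested, miR-122 was at -0.66 with the scaling used here. It was at -0.69 without scaling, -0.57 with the summed signal and -0.82 with the all-probe percentile. In the deposited values it was at -0.48, with slide as a fixed block at -0.40 and with quantile normalisation at -0.055.

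miR-122 was also at a lower mean in Ctnnb1 tumours than in phenobarbital controls, 13.66 against 14.08, and this difference did not pass the test. The log2 difference was -0.42 (SE 0.20, 95% interval -0.86 to 0.01, limma adjusted p = 0.239), with 8.33% of miRNAs called, all of them lower. Ctnnb1 tumours 1 and 5 lay within the range of the 3 controls and the other 5 below it. The exact two-sided permutation test gave p = 0.117 (smallest possible 0.00833). With slide as a random block the difference was -0.48 and passed, with an adjusted p of 0.0425. With slide as a fixed block, where only arrays of other groups tie the slides together because no slide held both groups, it was 0.01 (SE 0.43, adjusted p = 0.992).

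The size of that difference rested on the scaling. Without scaling, an alternative added after the values were seen, miR-122 had a mean of 13.75 ± 0.46 in the Ctnnb1 tumours and 13.78 ± 0.50 in the phenobarbital controls, a difference of -0.02 (limma adjusted p = 0.991). The scaling percentile averaged 667 ± 167 intensity units on the Ctnnb1 arrays and 504 ± 131 on the phenobarbital controls. The mean raw signal of miR-122 was thus level between the groups, while the mean scaling percentile was higher on the tumour arrays. The percentiles overlapped, from 463 to 877 on the Ctnnb1 arrays and from 386 to 644 on the phenobarbital controls, and their difference was not tested. No slide held both groups, so group and slide cannot be told apart in this brightness. Scaling on the added spike-in RNAs of the kit, also chosen later, gave -0.16 with the hybridisation controls and -0.11 with the labelling controls. Relative to the median miRNA tested, miR-122 was at -0.37 with the scaling used here and at -0.29 without any.

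miR-122 did not differ past the threshold between Ha-ras tumours and untreated controls. The log2 difference was 0.06 (SE 0.24, 95% interval -0.45 to 0.58, limma adjusted p = 0.910), in a comparison where 29.2% of the miRNAs were called. The interval allows a level from 0.731 to 1.49 times that of the controls. The exact two-sided permutation p was 0.8, and 3 against 3 cannot go below 0.1. Scaling moved the difference both ways. It was 0.31 with hybridisation and 0.42 with labelling spike-in scaling, 0.47 without scaling and 0.63 with the all-probe percentile. It was below 0 under 4 alternatives, the lowest being -0.27 after quantile normalisation. That method sets miR-122 by its rank, and it read 14.09 on each control liver and 13.83 on each Ha-ras tumour. No alternative passed the threshold. Without Ha-ras tumour 3 the difference was -0.04.

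Between the control livers the log2 difference of phenobarbital minus untreated was -0.10 (SE 0.24, 95% interval -0.62 to 0.41, limma adjusted p = 0.904). None of the 96 miRNAs was called in this comparison (0%), and 6 had an unadjusted p under 0.05. The exact permutation test gave p = 0.3, with 0.1 the smallest it allows. Whether the tumour-minus-control difference of miR-122 differs between the 2 arms was tested as an interaction, which was -0.48 (SE 0.32, 95% interval -1.16 to 0.19, adjusted p = 0.445, 2.08% of miRNAs called). A difference between the arms in the response of miR-122 was thus not shown.

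**Figure D2:**
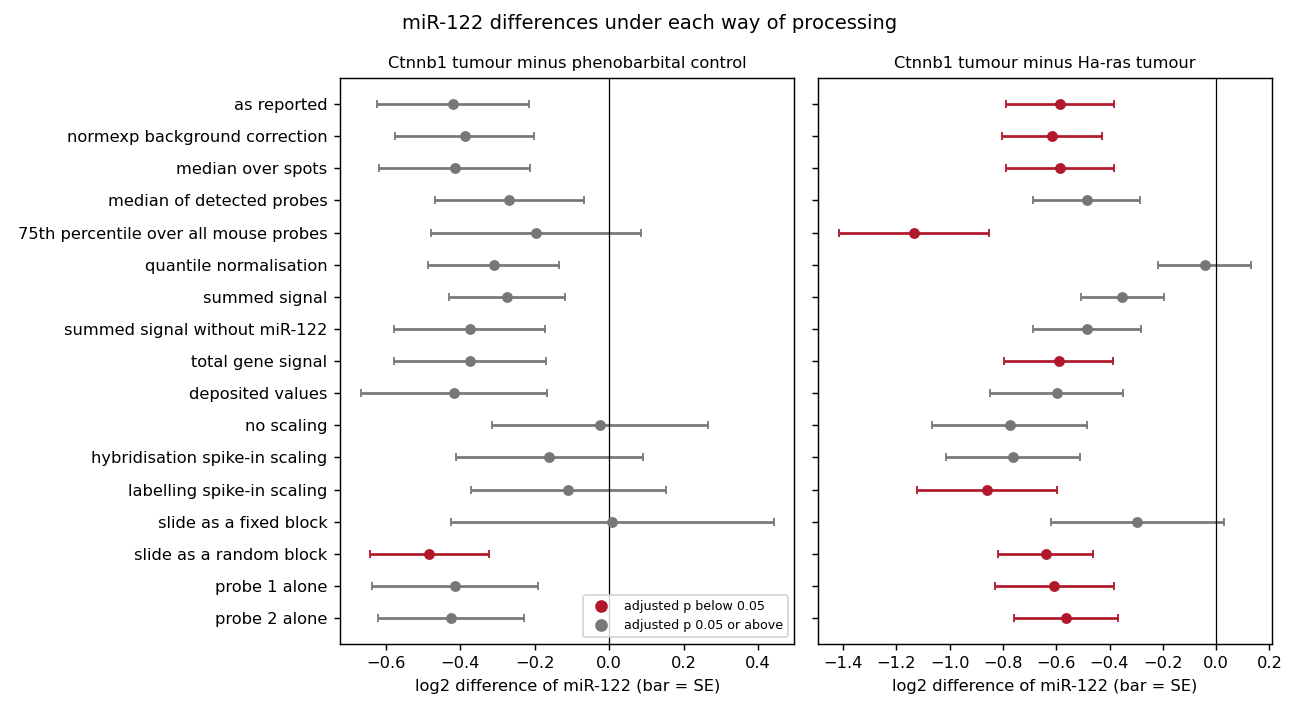
Log2 difference of miR-122 (points, with SE as bars) for Ctnnb1 tumours minus phenobarbital controls and Ctnnb1 tumours minus Ha-ras tumours, under the reported processing and 16 others; red marks an adjusted p below 0.05. The difference between the tumour kinds stays below 0 but runs from -1.13 to -0.04. Its ends are the all-probe percentile, which lies below the floor, and quantile normalisation, which sets miR-122 by its rank. The difference against the phenobarbital controls runs from -0.48 to 0.01.

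The scaled level of miR-122 ran against the number of mouse miRNAs detected on an array. That number was 83 to 100 on the Ha-ras tumour arrays, 92 to 102 on the untreated controls, 85 to 101 on the phenobarbital controls and 95 to 117 on the Ctnnb1 tumours. Over 16 arrays r was -0.74 and Spearman's rho -0.71, with permutation p of 0.00109 and 0.00276 and Benjamini-Hochberg values of 0.00654 and 0.0166 over 6 relations. Without the 2 arrays farthest from the median number r was -0.62. Within the 7 Ctnnb1 tumours r was -0.69 (exact permutation p = 0.0877, adjusted 0.175), and over the 8 arrays of slide 1, a set added after the values were seen, it was -0.72 (permutation p = 0.0510, adjusted 0.153). The relation kept its sign within these sets and did not pass the threshold there. With the scaling percentile itself r was -0.27 over the 16 arrays (permutation p = 0.305, adjusted 0.457). The 2 lowest arrays, Ctnnb1 tumours 7 and 3, had the highest number detected, 117 each, and Ha-ras tumour 3, the highest in miR-122, had the lowest, 83. The part of the number detected in the group differences was not tested. All of these r used the level scaled on the 75th percentile, and none was computed without scaling. Without scaling miR-122 averaged 13.75 on the Ctnnb1 tumours, 13.78 on the phenobarbital controls, 14.53 on the Ha-ras tumours and 14.055 on the untreated controls. The mean numbers detected were 109, 95, 94 and 95.7 in the same order.

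**Figure D3:**
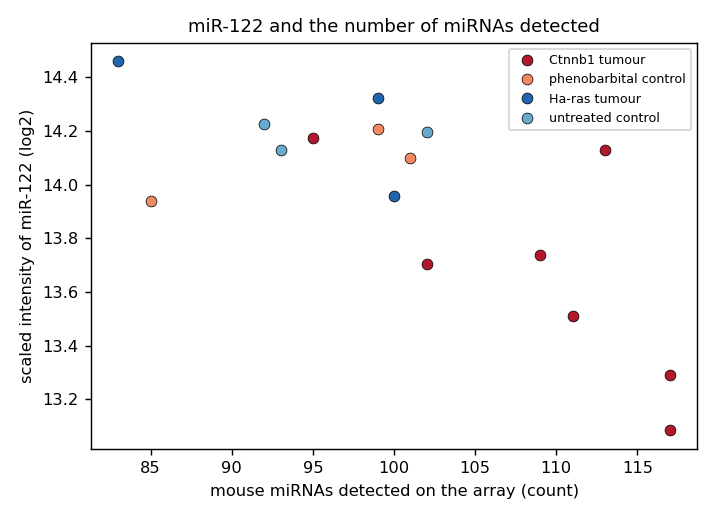
Level of miR-122 (log2 scaled intensity) against the number of mouse miRNAs detected on the array, with 1 point for each of 16 arrays, coloured by group. The arrays with 117 miRNAs detected have levels of 13.08 and 13.29, and the array with 83 has 14.46.

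The miRNAs most like miR-122 over the 16 arrays were miR-30a (r = 0.93), miR-30c (0.90), miR-26a (0.86), miR-101b (0.84) and miR-194 (0.83). The median r of the 71 compared was 0.10, 43 were above 0 and 8 were above 0.7. All points share the scaling of their array, so these are descriptions of 16 arrays. Within the 7 Ctnnb1 tumours the same 5 had r of 0.90, 0.93, 0.93, 0.92 and 0.90. These 7 arrays were among the 16 by which the 5 were chosen and hold most of the range of miR-122, so this is no separate support.

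miR-30a, a member of a family abundant in epithelia, ran from 7.02 in Ctnnb1 tumour 7 to 8.51 in Ha-ras tumour 3, the same arrays in which miR-122 was lowest and highest. It was lower in Ctnnb1 than in Ha-ras tumours, 7.48 ± 0.46 against 8.25 ± 0.23, by a log2 difference of -0.77 (SE 0.22, limma adjusted p = 0.0217). miR-30c, which shares its seed, was lower there too, by -0.59 (SE 0.17, adjusted p = 0.0226). miR-101b, a repressor of the histone methyltransferase Ezh2, was lower by -0.63 (SE 0.17, adjusted p = 0.0186). miR-26a, also known to target Ezh2 and cyclins, was at -0.33 (adjusted p = 0.291), and miR-194, a miRNA of liver and gut epithelium, at -0.51 (adjusted p = 0.109), and neither passed.

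Members of these families had unlike r, given here with all family members detected on every array. miR-30e has the seed of miR-30a and had r = 0.61 with miR-122, rank 10 of 71. miR-30d had r = 0.72, rank 8, and miR-30b had r = 0.23, rank 24, and both were also named after their values were seen. Within the 7 Ctnnb1 tumours miR-30e, miR-30d and miR-30b had r of 0.81, 0.78 and 0.68. miR-26b has the seed of miR-26a and had r = -0.49, rank 67. miR-101a, with a seed apart from that of miR-101b, had r = 0.83, rank 6. The sequences of miR-30a and miR-30e are nearly alike, and how far their probes bind each other's targets was not tested.

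The miRNAs that ran most against miR-122 were miR-15b (r = -0.68), miR-709 (-0.68) and miR-223 (-0.59). miR-223 is a marker of neutrophils and other myeloid cells, and miR-15b belongs to a family that represses cell cycle genes. miR-709 was higher in Ctnnb1 than in Ha-ras tumours, 8.26 ± 0.26 against 7.24 ± 0.39 (log2 difference 1.02, SE 0.17, adjusted p = 9.02e-04). miR-223 was higher there by 0.82 (SE 0.23, adjusted p = 0.0188). miR-15b, the most opposed, was at 0.37 (SE 0.21, adjusted p = 0.209). Scaling moved these relations. The r of miR-15b was 0.16 with the all-probe percentile and 0.14 without scaling, and that of miR-223 was 0.07 without scaling. That of miR-709 stayed below 0 but ran from -0.73 to -0.03 over the alternatives. The r of the 5 most alike had a lowest value of 0.52 over the alternatives.

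**Figure D4:**
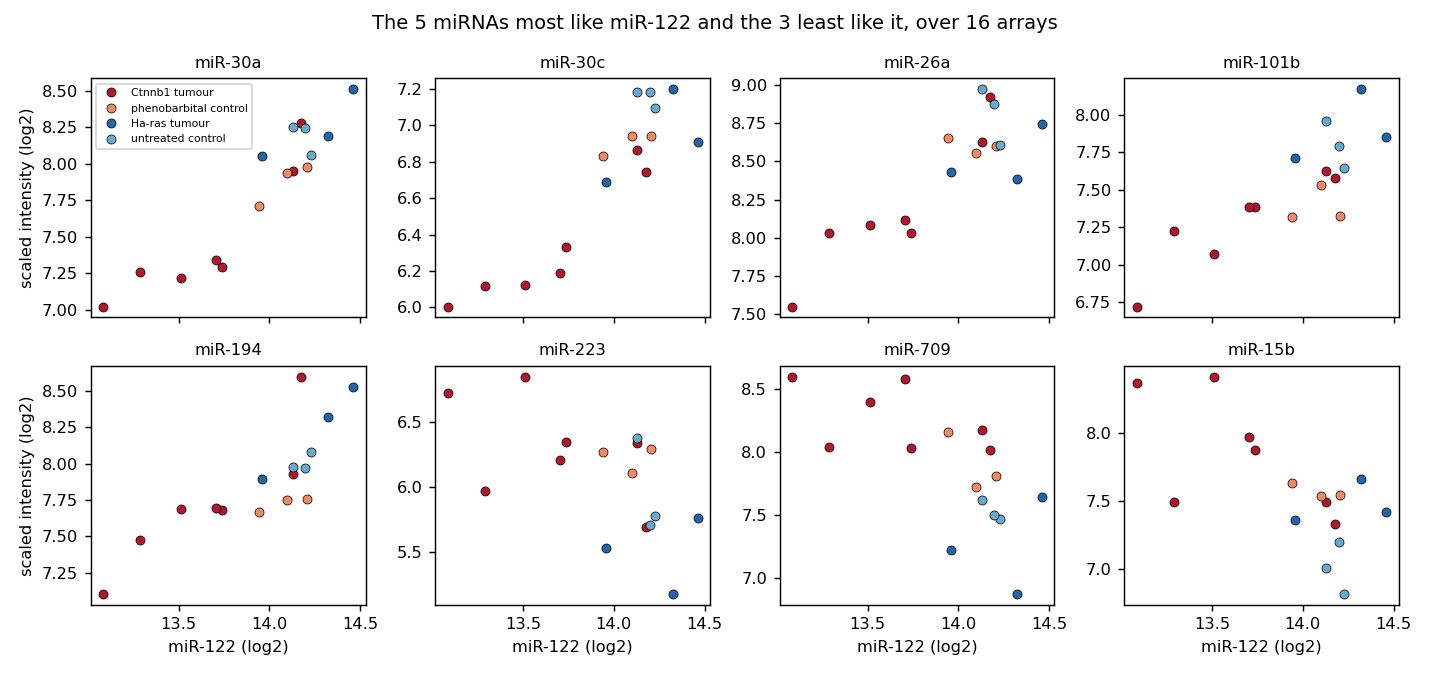
Log2 level of the 5 miRNAs with the highest and the 3 with the lowest correlation with miR-122 (vertical axes) against the level of miR-122 (horizontal axes), with 1 point for each of 16 arrays, coloured by group. miR-30a rises from 7.02 to 8.51 along miR-122, while miR-15b, miR-709 and miR-223 tend to fall along it. On Ctnnb1 tumour 3 (miR-122 at 13.29) miR-223 is 5.97, below each phenobarbital control. There miR-15b is 7.49, level with Ctnnb1 tumour 1, where miR-122 is 14.13.

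Other hepatocyte miRNAs differed in how far they followed miR-122. Of a list of 16 miRNA names known for high levels in hepatocytes or liver, 14 were on the array and 9 were tested. Over the 16 arrays miR-101b, miR-194 and miR-101a were among the 6 most like it, as given above. miR-192 had r = 0.54, miR-378 0.48, miR-193 0.21, miR-22 0.11 and miR-148a -0.39, and miR-22* was not detected on all arrays. In Ctnnb1 against phenobarbital controls 0 of the 9 were called, where 8.33% of all miRNAs were, and their median log2 difference was -0.11 against -0.05 for all miRNAs. In Ctnnb1 against Ha-ras tumours miR-22 was higher by 0.55 (SE 0.17, adjusted p = 0.0281), miR-101b was lower as given above, and miR-22*, the strand opposite to miR-22, was called higher against Ha-ras arrays that were all at the floor of 4.63. That is 2 of 9 higher and 1 lower, where 16.7% of all miRNAs were higher and 13.5% lower, and the median of the 9 was 0.02 against 0.08 for all miRNAs. miR-192, the partner of miR-194 in a shared cluster and a marker of hepatocytes and gut epithelium, was level at 10.47 ± 0.18 and 10.47 ± 0.19 (difference 0.00, SE 0.12, adjusted p = 0.987). miR-148a, abundant in hepatocytes and known to repress DNA methyltransferases, was at 9.59 ± 0.19 and 9.43 ± 0.24 (adjusted p = 0.376).

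In Ha-ras tumours against untreated controls 3 of the 9 were lower and none higher, where 19.8% of all miRNAs were lower and 9.38% higher. miR-193 fell by 1.18 on the log2 scale (SE 0.20, adjusted p = 6.94e-04) and miR-378, encoded within the gene of a metabolic coactivator, fell by 0.41 (SE 0.12, adjusted p = 0.0162), while miR-22* fell to the floor (adjusted p = 0.0146). miR-22 was at -0.54 (adjusted p = 0.0549) and miR-101a at -0.34 (adjusted p = 0.299). The median of the 9 was -0.34 against -0.06 for all miRNAs, while miR-122 stayed at 0.06. Between the control livers 0 of the 9 were called, with a median of -0.12.

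Markers of other liver cells were detected in part. Of 5 leukocyte markers 3 were detected on some array, and miR-150 and miR-155 on none. Their summed scaled intensity was 271 to 553 in Ctnnb1 tumours, 383 to 434 in phenobarbital controls, 163 to 481 in Ha-ras tumours and 237 to 480 in untreated controls. Beside the lower miR-122 in Ctnnb1 than Ha-ras tumours stood the higher miR-223 given above, and miR-142-3p was at 0.57 (adjusted p = 0.209); their part in the result was not tested. Of the 6 markers of stellate, mesenchymal and smooth muscle cells 4 were detected on some array, and miR-214 and miR-145 on none. Their sum was 49.9 to 118 in Ctnnb1 tumours, 43.8 to 55.3 in Ha-ras tumours, 176 to 184 in phenobarbital controls and 109 to 242 in untreated controls. miR-199a-3p, which marks stellate cells, was lower than in the matching controls in Ctnnb1 tumours by a log2 difference of -1.16 (adjusted p = 0.00187) and in Ha-ras tumours by -1.51 (adjusted p = 5.09e-04).

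The 5 markers of bile duct cells were at the edge of detection, with miR-200b seen on 5 arrays and miR-200c, miR-141 and miR-429 on none, and their sums ran from 7.80 to 38.4 in Ctnnb1 tumours, 40.9 to 56.4 in phenobarbital controls, 15.5 to 33.3 in Ha-ras tumours and 18.8 to 73.5 in untreated controls. Of the endothelial markers, miR-126-3p was detected on all arrays and was at -0.28 in Ctnnb1 tumours against their controls (adjusted p = 0.154) and at 0.20 against Ha-ras tumours (adjusted p = 0.241). The sum of both endothelial markers was 550 to 793 in Ctnnb1 tumours, 810 to 822 in phenobarbital controls, 520 to 671 in Ha-ras tumours and 630 to 778 in untreated controls. The 3 red cell markers, led by miR-451, summed to 1995 to 4297 in Ctnnb1 tumours, 3381 to 4689 in phenobarbital controls, 1496 to 5530 in Ha-ras tumours and 1304 to 5130 in untreated controls. The 4 hepatocyte markers, miR-122 among them, were detected on all arrays.

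In the authors' deposited table miR-122 takes only 5 different values over the 16 arrays. It is 14.88 on 6 arrays, 14.61 on 2, 14.47 on 3, 14.16 on 4 and 13.34 on 1, Ctnnb1 tumour 7. These values follow the rank of miR-122 by the software's total gene signal among 598 features of its array, of which 22 are control features. Rank 1 has 14.88, rank 2 has 14.61, rank 3 has 14.47, rank 4 has 14.16 and rank 5 has 13.34. Each of the ranks 1 to 100 has 1 value in the authors' deposited table in every column where it occurs. The features brighter than miR-122 were the control features dmr_3, dmr_6 and hur_2, and on Ctnnb1 tumour 7 also miR-21, which is named here after its values were seen.

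The deposited level of miR-122 thus follows the number of features that outshine it, and arrays with the same rank read alike. Ctnnb1 tumours 3 and 5 both have 14.16 in the authors' deposited table, although their scaled levels were 13.29 and 14.18, a gap that spans most of the range of the group. The control feature hur_2 ran from 9206 to 50272 in total gene signal over the arrays, and dmr_3 and dmr_6, which the file headers use as hybridisation controls, had a geometric mean of 20457 to 28374. With the authors' deposited table the means of miR-122 were 14.19 ± 0.46 in Ctnnb1 tumours and 14.61 ± 0.23 in phenobarbital controls, and 14.79 ± 0.15 both in Ha-ras tumours and in untreated controls. The difference of the tumour kinds in it was -0.60 (SE 0.25, limma adjusted p = 0.0952), close in size to the one above and not past the threshold.

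**Figure D5:**
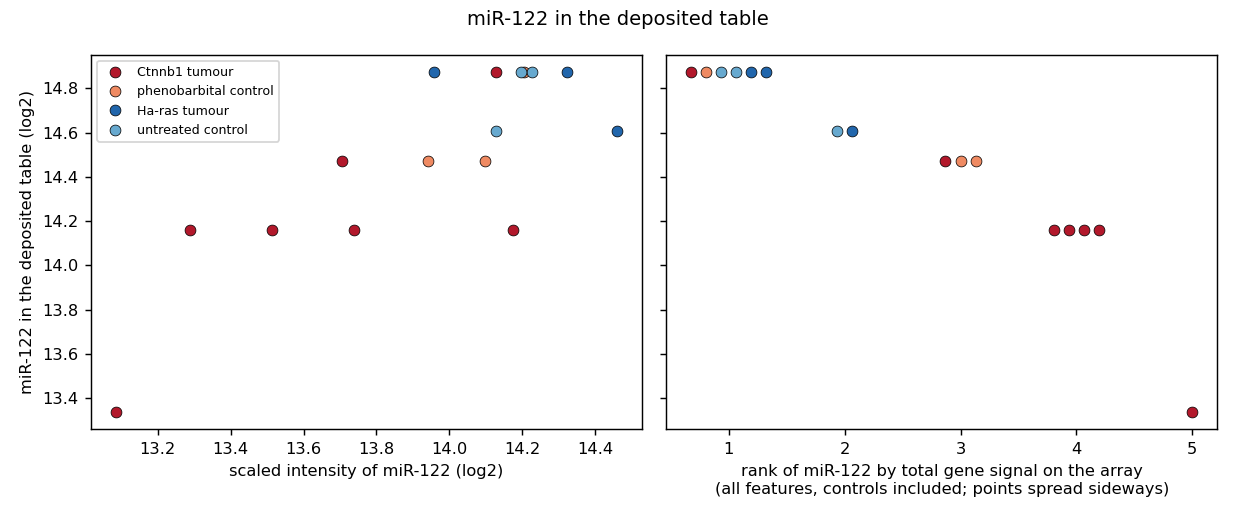
miR-122 in the authors' deposited table (log2) against its scaled intensity (left, log2) and against its rank by total gene signal on the array (right), with 1 point for each of 16 arrays, coloured by group. The deposited values form 5 steps from 14.88 at rank 1 to 13.34 at rank 5, and 4 Ctnnb1 tumours share 14.16.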

How the data were processed

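Per the labels' protocols, RNA was isolated with a miRNeasy kit and 25 ng of it end-labelled for one-colour Agilent miRNA arrays. Per the file headers, Agilent Feature Extraction 10.7.3.1 (protocol miRNA_107_Sep09) gave the deposited spot intensity, a background-subtracted signal with no scaling between arrays. Between 35.9% and 45.9% of an array's spot intensities were at or below 0. The log2 table deposited by the authors was used as an alternative only. R 2.14.1 is named in the submitters' processing notes; how the table was normalised is not given in these sources.

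Outlier spots and control probes were left out, spots were averaged per probe, and each array was scaled on the 75th percentile of its 117 probes that all arrays detected. Values were brought back to the median percentile, floored at 24.8 intensity units (4.63 on the log2 scale), taken to log2 and averaged per miRNA. Of 566 mouse miRNAs, 96 entered the limma fit (version 3.58.1, R 4.3.3) of 4 group means over all 16 arrays, with Benjamini-Hochberg adjustment and a threshold of 0.05. The script was tested on simulated data. The number of arrays limits the precision.

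Named were miR-122 with each probe, the tested hepatocyte-enriched miRNAs, the defining markers of other cell types, and the 5 most and 3 least correlated miRNAs. The members and lists were chosen with earlier results of these data known. Alternatives were the background correction, spot summary, scaling, filter, slide, replicate number and each array left out.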

Additional observations from a re-analysis of the deposited data

How the results depend on the processing

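The lower miR-122 in Ctnnb1 than Ha-ras tumours (-0.59) stayed below 0 under all 22 alternatives, and 9 of them kept the call. Among these 9 is the all-probe percentile, which lies below the floor. The difference between the tumour kinds lost the call under the others. It fell short of the threshold at -0.043 with quantile normalisation, where miR-122 holds the top ranks and takes few values by construction, -0.49 scaled on the median of detected probes, -0.35 on the summed signal, -0.48 on that sum without miR-122, -0.60 in the deposited values, -0.77 without scaling, -0.76 with hybridisation spike-in scaling, -0.30 with slide as a fixed block and within slide 1, and -0.59 with no filter (adjusted p = 0.201), with only the groups compared (0.114) and in the exact permutation test (p = 0.0583). With 1 array left out it ran from -0.73 to -0.48, and 12 of 16 such fits lost the call. No-scaling and spike-in alternatives were added after seeing the data.

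Ctnnb1 minus phenobarbital controls kept its sign under 20 of 21 alternatives. It was 0.0080 with slide as a fixed block and -0.48, past the threshold, with slide as a random block. Ha-ras minus untreated was -0.27 with quantile normalisation and -0.096 with the total gene signal. Scaled on the summed signal it was -0.033 with miR-122 in the sum and -0.057 without it. It was 0.31 with hybridisation and 0.42 with labelling spike-in scaling, 0.47 without scaling and 0.63 with the all-probe percentile. With 1 array left out it ran from -0.044 to 0.21. The control comparison and the interaction kept their side of the threshold under all alternatives. The deviations of same-numbered samples from their group means had correlations from -0.77 to 0.58. In groups of 3 such deviations are tied to each other. They therefore cannot settle whether same-numbered samples shared an animal or a batch. With the replicate block the tumour kinds differed by -0.53 (adjusted p = 0.364) over 3 numbers, Ctnnb1 minus phenobarbital by -0.28 (0.346) and Ha-ras minus untreated by 0.06 (0.808), and the counts of all miRNAs called were 3, 0 and 16.

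Of the hepatocyte list, none was called for Ctnnb1 minus phenobarbital, but 1 with normexp and with total gene signal, 2 with the random slide block, and 0 to 2 with 1 array left out. For Ha-ras minus untreated, 3 were called, against 1 with normexp, either spike-in scaling or the fixed slide block, 0 with the all-probe percentile or no scaling, 5 with total gene signal, and 1 to 4 with 1 array left out. For the tumour kinds, 3 were called, against 1 in the deposited values, with labelling spike-in scaling or no filter, 0 with no scaling, hybridisation spike-in scaling or the fixed slide block, and 0 to 4 with 1 array left out. For the interaction, 1 was called with the summed signal. All miRNAs called ran from 0 to 20 (reported 8) for Ctnnb1 minus phenobarbital, 5 to 33 (28) for Ha-ras minus untreated, 3 to 40 (29) between tumour kinds, 0 to 5 (0) between controls and 0 to 8 (2) for the interaction. The SD of miR-122 over the alternatives ran from 0.31 to 0.46 in Ctnnb1 tumours, 0 to 0.60 in phenobarbital controls, 0 to 0.47 in Ha-ras tumours and 0 to 0.45 in untreated controls. The r of miR-223 turned to 0.066 without scaling, and that of miR-15b to 0.16 with the all-probe percentile and 0.14 without scaling. The r of miR-709 ran from -0.73 to -0.033. The relation to the number detected was -0.69 in the 7 Ctnnb1 tumours and -0.72 on slide 1, past no threshold. That relation was computed on the scaled level only. Except as said, the cause was not tested. Signal over background limits miRNAs near the floor, not miR-122.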
